A study of Mus musculus with 9 samples.

Results

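The genes described here encode the subunits of voltage-gated sodium and calcium channels, followed through cultures of mouse cortical neurons with and without a supramolecular scaffold. They were chosen by name: protein-coding genes whose symbols begin with Scn, Cacna1, Cacna2d, Cacnb or Cacng and end in the number or letter of a subunit. This gave 40 of the 54232 genes in the files: 10 sodium channel alpha and 4 beta subunits, and 10 calcium channel alpha1, 4 alpha2delta, 4 beta and 8 gamma subunits. Counts were high enough to test 31 of the 40. RNA sequencing covered 9 libraries of cortical neurons labelled wildtype and CD1, an outbred mouse stock, with 3 repeats in each of 3 groups. The control libraries carry the name PDL. The PA group received a peptide amphiphile, a peptide with a fatty tail that assembles into fibres, and its libraries carry the name IKVAV, a laminin-derived sequence. The PA + PS2 libraries carry the names IKVAV and PEDOT-S-OH, a member of a family of conducting polymers. Groups follow the titles, because the treatment field names the amphiphile in every library, even the controls. Age, culture time and dose are not given in the labels, and nothing there says whether repeats were separate cultures, so the p-values measure the spread between these libraries, which may be technical.

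Voltage-gated sodium channels open on depolarisation and carry the rising phase of the action potential. The large alpha subunit forms the pore, and the small beta subunits tune its gating and bind adhesion molecules. Calcium channels have the same plan: the alpha1 subunit forms the pore, the beta subunit binds it inside the cell, and the alpha2delta subunit promotes its trafficking to the surface. Most brain gamma subunits (Cacng2 to Cacng5, Cacng7 and Cacng8) are better known as auxiliary subunits of AMPA-type glutamate receptors than as parts of calcium channels.

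Total counts ran from 20746851 to 27237398 per library, and the 40 genes took between 0.304% and 0.349% of them. The neuron markers (Tubb3, Rbfox3, Map2, Snap25, Syt1, Nefl and Stmn2) summed to 6251 to 6840 CPM (counts scaled to the size of the library) in control, 6118 to 7265 in PA and 6562 to 7271 in PA + PS2, so the labelled cell type was borne out in every group. Other cell types were present at lower levels. Markers of mural cells, fibroblasts or smooth muscle summed to 142 to 206 CPM in control, 96.8 to 170 in PA and 13.3 to 60.7 in PA + PS2. Progenitor or dividing cell markers summed to 164 to 333, 215 to 294 and 132 to 157 CPM, and astrocyte markers to 160 to 264, 208 to 248 and 164 to 198 CPM, in the same order. Slc1a2 (136, 130 and 129 CPM on average) made up most of the astrocyte sum. For PA + PS2 against PA, 6 of 7 tested astrocyte markers lay below 0, with a median log2 difference of -0.89. For PA + PS2 against control 5 of 7 did, with a median of -0.07. Excitatory neuron markers summed to 1363 to 1484 CPM in control, 1230 to 1609 in PA and 1551 to 1652 in PA + PS2. For PA + PS2 against control, 6 of 6 lay above 0, with a median log2 difference of 0.20. GABAergic neuron markers summed to 811 to 984, 759 to 950 and 885 to 1006 CPM in the same order. For PA + PS2 against control, 6 of 7 GABAergic markers lay above 0, with a median log2 difference of 0.07. Oligodendrocyte lineage markers summed to 60.6 to 85.9, 68.3 to 77.8 and 52.1 to 75.2 CPM; of these, the precursor markers Pdgfra (5.29, 4.18 and 0.954 CPM on average), Olig1 (11.9, 11.4 and 2.19) and Olig2 (9.36, 7.82 and 2.37) were lowest in PA + PS2 and were picked out after their values were seen. No tested marker of any cell type, the mural, progenitor and astrocyte lists included, passed the test used below for the channel genes in any comparison. The part of these cell types in the differences of the channel genes was not tested. The markers of endothelium summed to at most 8.84 CPM and those of skeletal muscle to at most 2.16 CPM in any library. In these bulk libraries, fewer cells of a type and less RNA per cell cannot be told apart.

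RefSeq promoter windows (GRCm38.p6) were matched for 30 of the 40 genes. In the 250 bases before the listed start, CG dinucleotides numbered 0 to 50 (median 19.5) in the 22 matched genes that were tested. In the 8 that were not tested they numbered 3 to 23 (median 4.5). Where a gene had several listed starts, the window with the most CG was taken, for channel genes and all genes alike. Genes with more starts thus had more chances of a high count. The medians over all matched genes were 17 for 10548 tested genes and 2 for 5965 coding genes that were not tested. By median, the channel genes lay near this general pattern. At least 10 CG were found in 63.6% of the tested channel genes, below the 78.7% of all tested genes. For genes that were not tested these shares were 12.5% and 12.9%. The motif TATAAA, on either strand, was found in 1 of the 22 tested genes (Scn2a) and in 0 of the 8 others, against 5.67% of all tested and 21.8% of all untested coding genes. The windows shown hold no annotated exon. They come from 2 genes whose groups separate in a comparison below and from Scn11a. Scn11a, a channel of peripheral sensory neurons, was barely counted here. The window of Cacna1d lies inside the annotated gene. The windows of Cacna1d and Cacng5 were taken from 2 listed starts each, and that of Scn11a from 1. Each is read 5′ to 3′ with CG in capitals, and the CG count falls from 50 in Cacna1d (chr14:30353487-30353736, minus strand) through 12 in Cacng5 (chr11:107915056-107915305, minus strand) to 3 in Scn11a (chr9:119825457-119825706, minus strand).
Cacna1d: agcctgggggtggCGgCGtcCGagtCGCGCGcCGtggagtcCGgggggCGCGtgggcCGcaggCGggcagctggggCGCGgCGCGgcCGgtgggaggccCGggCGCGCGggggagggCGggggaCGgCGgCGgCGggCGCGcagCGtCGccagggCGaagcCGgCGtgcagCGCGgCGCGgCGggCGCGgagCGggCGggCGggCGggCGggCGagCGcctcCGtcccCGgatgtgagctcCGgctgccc
Cacng5: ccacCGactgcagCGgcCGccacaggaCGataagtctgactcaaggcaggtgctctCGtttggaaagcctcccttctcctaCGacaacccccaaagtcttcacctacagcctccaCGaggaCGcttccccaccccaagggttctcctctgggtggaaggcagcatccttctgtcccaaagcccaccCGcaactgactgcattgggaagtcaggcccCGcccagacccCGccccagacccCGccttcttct
Scn11a: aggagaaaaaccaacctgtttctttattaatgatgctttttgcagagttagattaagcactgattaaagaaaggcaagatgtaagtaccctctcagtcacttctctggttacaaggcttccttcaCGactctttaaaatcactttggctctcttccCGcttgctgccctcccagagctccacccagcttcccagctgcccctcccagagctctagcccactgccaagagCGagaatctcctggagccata

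Among sodium channel alpha genes, levels were compared as CPM per kilobase of exon. Scn2a, the channel of young axons and excitatory cells, was at 11.3 ± 1.31 in control, 11.9 ± 2.22 in PA and 11.8 ± 0.45 in PA + PS2 (SD, n = 3 each). Scn3a, known for its high level in the embryonic and newborn brain, was at 9.44 ± 0.947, 9.10 ± 1.52 and 9.33 ± 0.536 in the same order. Scn8a, which comes to dominate at mature nodes and axon initial segments, was at 8.03 ± 0.562, 8.81 ± 0.588 and 7.59 ± 0.633. Over the 9 libraries, Scn3a (7.43 to 10.4) overlapped both neighbours, while Scn2a (9.38 to 13.4) lay above Scn8a (7.20 to 9.17) throughout. Scn1a, a main channel of inhibitory interneurons, was lower, from 1.56 to 3.19 CPM per kilobase. Scn9a, a channel of peripheral neurons, averaged 0.213. Scn2a, Scn3a, Scn8a and Scn1a made up 35.7%, 29.9%, 25.5% and 7.29% of the alpha subunit signal per length in control. The beta subunits were led by Scn3b, at 39.8 CPM per kilobase on average, which held 76.1% ± 1.51 of the beta signal in control, 75.6% ± 2.61 in PA and 77.1% ± 1.75 in PA + PS2.

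The pore-forming calcium channel genes were led by Cacna1b, which encodes the N-type channel of presynaptic terminals, at 31.8 CPM per kilobase, and by Cacna1h, a low-voltage-activated T-type channel, at 25.1. They held 34.4% and 26.3% of the alpha1 signal in control, though in control repeat 2 Cacna1h (24) lay just above Cacna1b (23.4). Exons of Cacna1h overlap Tpsg1 on the opposite strand, and the strand setting of the counting is not given. The other 6 tested alpha1 genes averaged from 3.61 (Cacna1d) to 8.52 (Cacna1c, an L-type channel) CPM per kilobase. Cacna2d1, a binding site of gabapentin, held 61.0% of the alpha2delta signal in control, and Cacnb3 held 69.5% of the beta signal. Of the gamma genes, Cacng4 (119 CPM per kilobase) and Cacng7 (66.1) held 53.5% and 30.0%. By group means, the leading gene was the same in all 3 groups in each of the 6 subfamilies. These levels depend on the annotated exon length: per longest coding transcript, Cacna1b and Cacna1h held 29.0% and 25.6% of the control alpha1 signal.

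**Figure D1:**
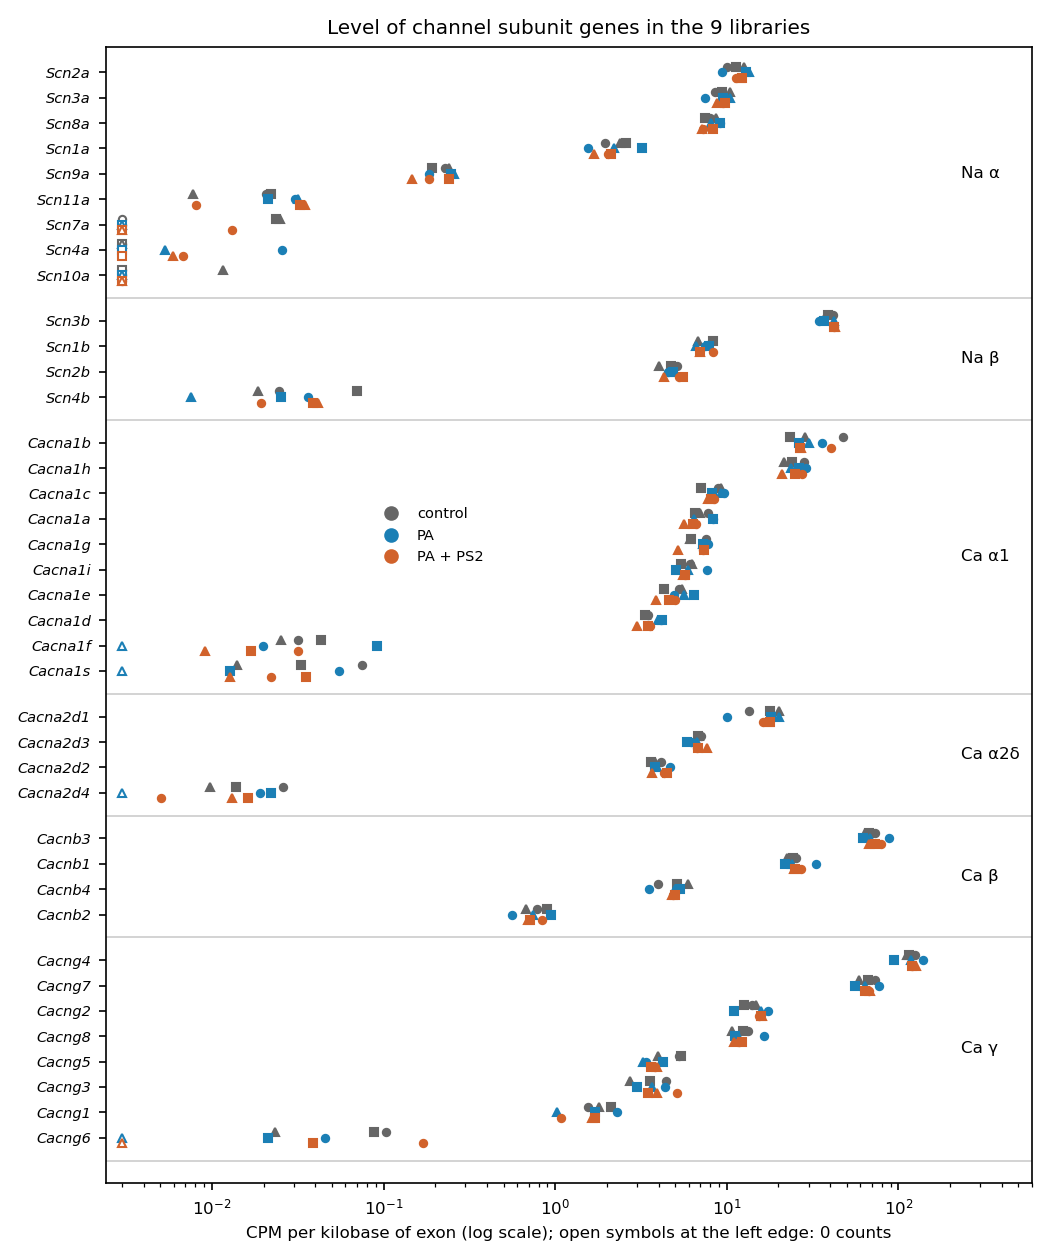
Level of the channel genes in CPM per kilobase of exon (log axis) in each library, with colours for the groups and circles, squares and triangles for repeats 1, 2 and 3. Cacng4 lies highest, at 119 on average, and open symbols at the left edge mark libraries with 0 counts.

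**Figure D2:**
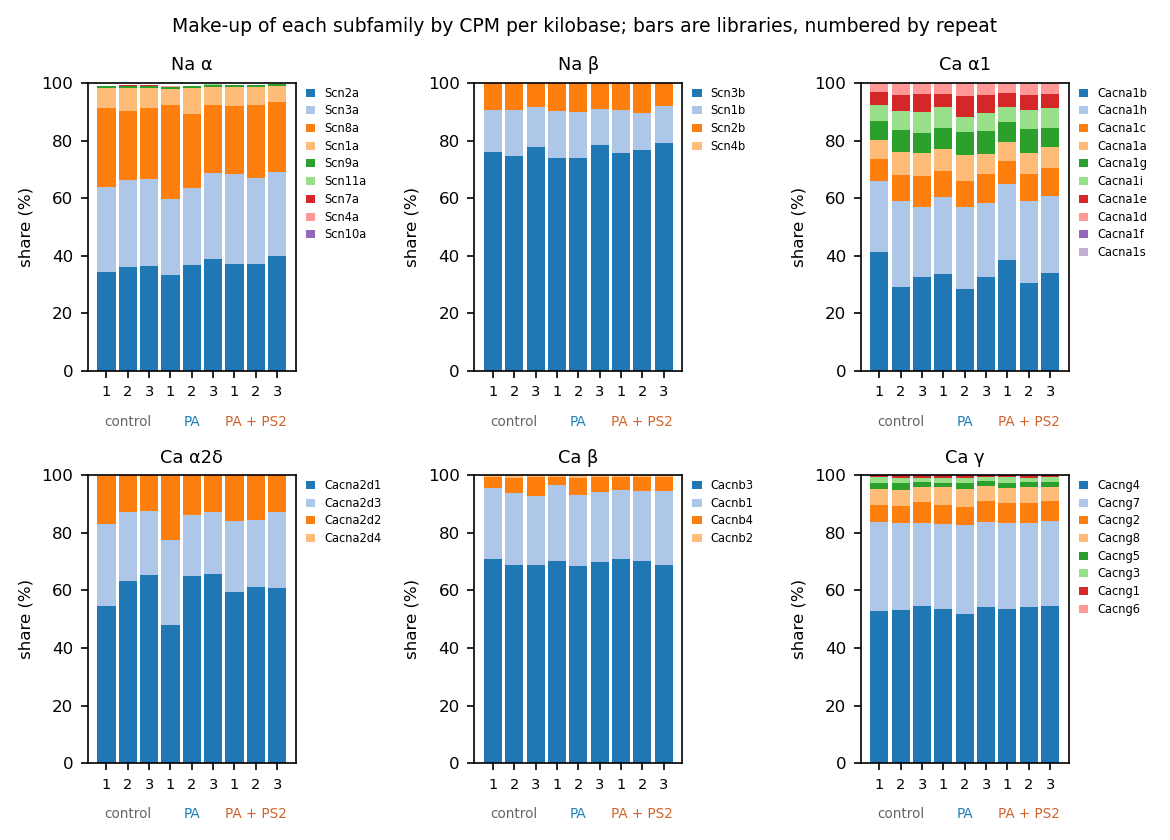
Share of each gene in the summed CPM per kilobase of its subfamily, in percent, with 1 stacked bar per library; a gene not reported here is left out of its bars. Scn3b, Cacna2d1, Cacnb3 and Cacng4 are the largest members of their subfamilies, with group means from 53.2% to 77.1%.

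The 9 genes that were not tested are mostly known from tissues other than cortex. Scn4a and Cacna1s are the skeletal muscle channels, Scn10a and Scn11a belong to peripheral sensory neurons, and Cacna1f and Cacna2d4 to the retina. With Scn7a, Scn4b and Cacng6, they had between 2 (Scn10a) and 57 (Cacna1f) counts summed over the 9 libraries, and their differences were not detectable at this depth.

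The ratio of Scn2a, Scn8a or Scn1a to Scn3a is of interest because Scn3a is the early gene and the others rise after birth. On the log2 scale, per length, Scn2a over Scn3a was 0.23, 0.27 and 0.28 in control repeats 1, 2 and 3, 0.33, 0.46 and 0.36 in PA, and 0.26, 0.31 and 0.44 in PA + PS2. The PA values all lay above the control values, and those of PA + PS2 overlapped both groups. Scn8a over Scn3a was -0.23 ± 0.12 in control, -0.04 ± 0.33 in PA and -0.30 ± 0.08 in PA + PS2, and Scn1a over Scn3a was -2.04 ± 0.15, -2.02 ± 0.39 and -2.28 ± 0.09 (SD, n = 3). Scn8a over Scn3a overlapped between all groups. Scn1a over Scn3a was lower in every PA + PS2 library (-2.22, -2.22 and -2.38) than in any control library (-2.13, -1.87 and -2.13). Its PA values overlapped both other groups. For scale, groups without overlap were found for 4.04% of all single genes in PA against control and 11.9% in PA + PS2 against control. No test was run on these ratios.

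PA against control asks what the peptide scaffold alone changed. No channel gene passed the test in either direction: 0 of 31 reached an adjusted p of 0.05 in edgeR's quasi-likelihood test, where the share over all 15712 genes was 0%. At an unadjusted p under 0.05 there were 2 of 31 (6.45%), against 1.22% of all genes, and DESeq2 also called 0. The median log2 difference was 0.05 over the channel genes and -0.01 over all genes, and 19 of 31 lay above 0. The 95% interval of the difference lay within 1.5-fold for 26 genes (83.9%, against 58.8% of all genes). It lay within 2-fold for all 31, against 77.5% of all genes.

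Cacna1d (ENSMUSG00000015968, chromosome 14, 30039939 to 30491455) encodes an L-type channel that opens at relatively negative voltages. It was at 43.8, 41.9 and 42.9 CPM in control, 52.3, 52.7 and 49.9 in PA, and 45.0, 43.9 and 37.7 in PA + PS2. Every PA library lay above all 6 others. The log2 difference of PA from control was 0.27 ± 0.10 (SE, adjusted p = 1). Groups without overlap were found for 2 of 31 channel genes (6.45%, against 4.04% of all genes), Cacna1d above, as were 1.97% of all genes, and Cacna2d3 below, as were 2.07%. Cacna2d3, an alpha2delta subunit, was at 61.5, 59.0 and 59.9 CPM in control, 54.1, 50.9 and 58.4 in PA and 58.5, 59.2 and 66.9 in PA + PS2, a log2 difference of -0.14 ± 0.10 between PA and control (adjusted p = 1). Exons of Cacna1d overlap Chdh on the opposite strand, and since the strand setting of the counting is not given, reads of the pair cannot be told apart.

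Cacng5 (ENSMUSG00000040373, chromosome 11, 107874605 to 107915055), an AMPA receptor auxiliary subunit, was at 20.3, 20.8 and 15.2 CPM in control, 13.0, 16.2 and 12.4 in PA and 14.6, 14 and 15.1 in PA + PS2. The control and PA ranges overlapped through control repeat 3, but within each repeat PA lay below control, by log2 differences of -0.64, -0.36 and -0.29. Its log2 difference from control was -0.44 ± 0.16 in PA (adjusted p = 1) and -0.37 ± 0.15 in PA + PS2 (adjusted p = 0.755). Scn8a was at 126, 118 and 136 CPM in control, 145, 144 and 128 in PA and 114, 131 and 113 in PA + PS2, with overlap between all groups. Cacna1g, a T-type channel, was at 76.9, 62.3 and 62.1, 79.1, 73.4 and 73.3, and 73.6, 74.3 and 52.4 CPM, also with overlap. The log2 differences of PA from control were 0.13 ± 0.10 for Scn8a, 0.17 ± 0.14 for Cacna1e and 0.17 ± 0.14 for Cacna1g (each adjusted p = 1).

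**Figure D3:**
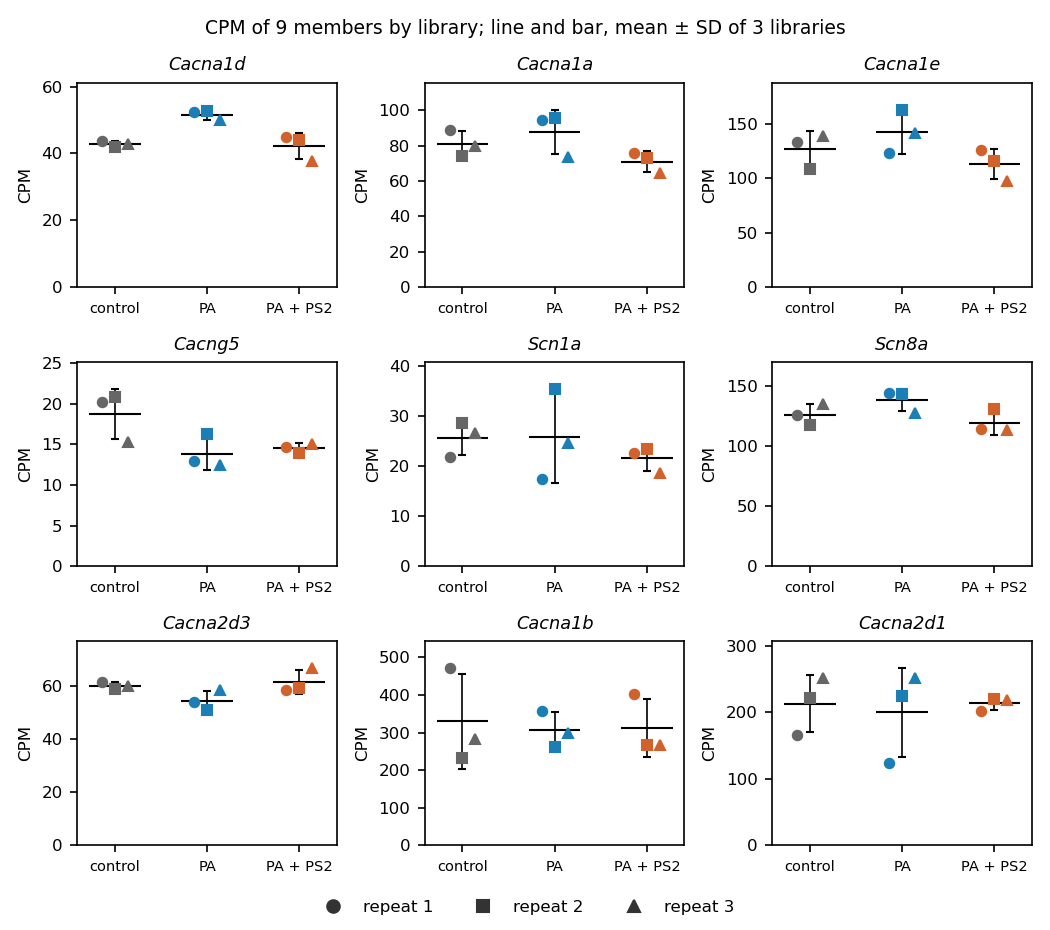
CPM of 9 channel genes in each library, by group, with the mean and SD of 3 libraries as line and bar. Cacna1d lies between 49.9 and 52.7 in PA and at or below 45.0 elsewhere, and Cacna1b is highest in repeat 1 of each group.

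PA + PS2 against control adds the conducting component. Again 0 of 31 channel genes passed, where 7 of 15712 genes did (0.0446%, all lower). With the repeat as a block 184 genes passed and with DESeq2 224, with 0 channel genes among them in either. At an unadjusted p under 0.05 there were 2 channel genes (6.45%), close to the 5.63% of all genes, and groups without overlap numbered 4 (12.9%), close to 11.9%. Of these, 2 lay above the controls, as did 5.38% of all genes, and 2 below, as did 6.54%. The median log2 difference was -0.02, against 0.00 over all genes. Intervals lay within 1.5-fold for 24 genes (77.4%, against 57.7% of all genes) and within 2-fold for 29 (93.5%, against 74.8%). All 8 tested alpha1 genes lay below 0, from -0.19 ± 0.12 (Cacna1a) to -0.0026 ± 0.13 (Cacna1h), but none passed, and Cacna1g lay at 0.000367 with no filter on low counts. Over all genes, 7884 of 15712 lay below 0. Within repeats the direction was mixed. In repeat 3 all 8 lay below 0, from -0.03 (Cacna1h) to -0.50 (Cacna1e), and in repeat 1 all but Cacna1d (0.04) did. In repeat 2, 7 of the 8 lay above 0 (from 0.05 for Cacna1h to 0.25 for Cacna1g), with Cacna1a at -0.03.

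Within repeats 1, 2 and 3, Cacng5 differed from control by log2 differences of -0.47, -0.58 and -0.01. With the values given above, it lay below all controls, most narrowly in repeat 3 (15.1 against 15.2 CPM). Scn3b lay above them, at 228, 213 and 208 CPM in control, 188, 200 and 231 in PA and 229, 229 and 232 in PA + PS2, with a log2 difference of 0.09 ± 0.10 (adjusted p = 1.00). Cacng2, the founding AMPA receptor auxiliary subunit known as stargazin, was at 77.6, 69.5 and 81.7, 95.1, 60.6 and 87.1, and 85.4, 87.0 and 88.4 CPM in the same order, a log2 difference of 0.19 ± 0.14. The summed excitatory neuron markers lay above control in PA + PS2 without overlap, where 5.38% of all single genes did. The summed GABAergic neuron markers overlapped control. The part of cell types in the values of Scn3b and Cacng2 was not tested.

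PA + PS2 against PA shares its libraries with both comparisons above. No channel gene passed (0 of 31, against 0% of all genes), with 4 of 31 at an unadjusted p under 0.05 (12.9%, against 5.61%), all lower in PA + PS2. DESeq2 called 128 genes and 0 channel genes. Cacna1d was lower by a log2 difference of -0.29 ± 0.10 (adjusted p = 0.530), again without overlap, while Cacna2d3 was the gene without overlap in the other direction, 0.18 ± 0.10 (adjusted p = 1.00); these 2 of 31 (6.45%) compare with 9.64% of all genes, 3.32% higher and 6.32% lower. Cacna1a, the P/Q-type channel of fast synapses, was at 88.9, 74.3 and 80.0 CPM in control, 94.6, 95.5 and 73.4 in PA and 75.8, 72.7 and 64.2 in PA + PS2. Its groups overlapped through PA repeat 3, and the difference between PA + PS2 and PA was -0.31 ± 0.12 (adjusted p = 0.742). Cacna1e, the R-type channel, was at 133, 108 and 139 CPM in control, 123, 163 and 141 in PA and 126, 116 and 97.9 in PA + PS2, a difference of -0.33 ± 0.14 (adjusted p = 0.774). Scn8a differed by -0.22 ± 0.10 (adjusted p = 0.901) and Scn1a by -0.26 ± 0.22 (adjusted p = 1.00). Scn1a was at 21.8, 28.6 and 26.6 CPM in control, 17.4, 35.5 and 24.6 in PA and 22.6, 23.5 and 18.7 in PA + PS2, where PA spanned both other groups. The median over channel genes was -0.01. Intervals lay within 1.5-fold for 25 genes (80.6%, against 56.9% of all genes) and within 2-fold for 30 (96.8%, against 74.9%).

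**Figure D4:**
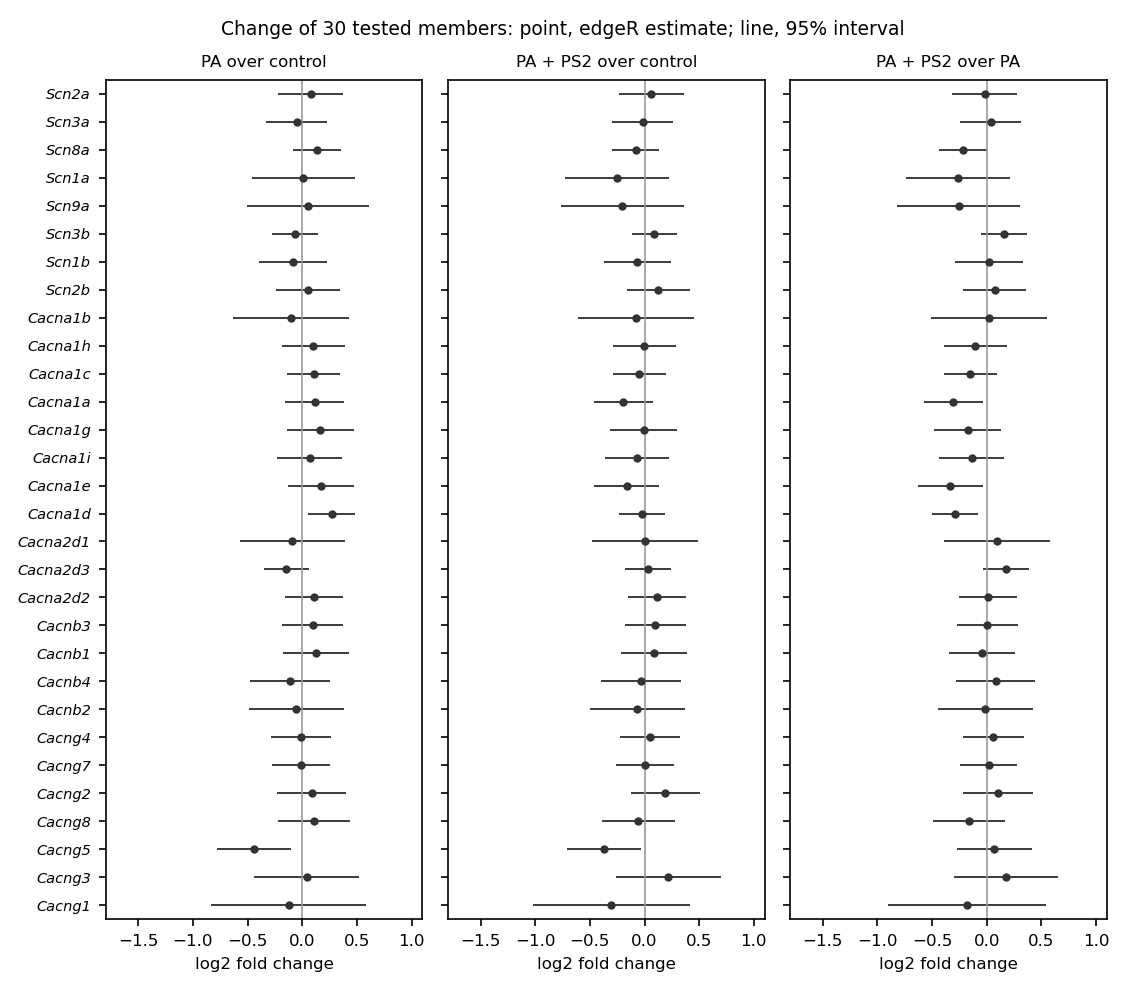
Log2 difference of tested channel genes in the 3 comparisons, with its 95% interval. None of the points shown passed the adjusted threshold, and Cacng5 lies at -0.44 for PA and -0.37 for PA + PS2 against control.

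Several abundant channel genes differed more between repeats than between groups. Cacna1b was at 472, 232 and 284 CPM in control repeats 1 to 3, 359, 262 and 299 in PA and 401, 266 and 268 in PA + PS2. Cacna2d1 ran the other way, at 166, 221 and 252, 124, 224 and 251, and 202, 220 and 218. In 6 of 31 channel genes (19.4%, against 12.7% of all genes) the 3 libraries of repeat 1 lay all above (Cacna1b, Cacna1h, Cacnb1, Cacnb3, Cacng3) or all below (Cacna2d1) the 6 others. Cacnb3 was at 294, 269 and 257, 352, 248 and 275, and 318, 291 and 269 CPM, and Cacng4 at 449, 415 and 399, 494, 336 and 424, and 430, 428 and 450. Scn2a was at 127, 144 and 161, 119, 166 and 171, and 144, 155 and 151 CPM. The log2 differences between groups of Cacna1b, Cacna2d1, Cacnb3, Cacng4 and Scn2a lay between -0.10 (Cacna1b, PA against control) and 0.10 (Cacnb3, PA + PS2 against control), well inside the spread between repeats. The deviation of a library from its group mean also followed the GC content of the transcripts. Over the 31 genes Spearman's rho was 0.588, -0.0488 and -0.579 in control repeats 1 to 3, 0.819, -0.481 and -0.777 in PA, and 0.377, -0.199 and -0.0976 in PA + PS2. The deviations within a group sum to about 0, so the values of its libraries are not independent. Over all genes with a GC value (85.4% of those tested), rho was 0.514, -0.102 and -0.489 in control, 0.715, -0.357 and -0.587 in PA and 0.283, -0.00854 and -0.252 in PA + PS2. The part of GC content in the differences between groups was tested only as the added setting described with the processing.

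**Figure D5:**
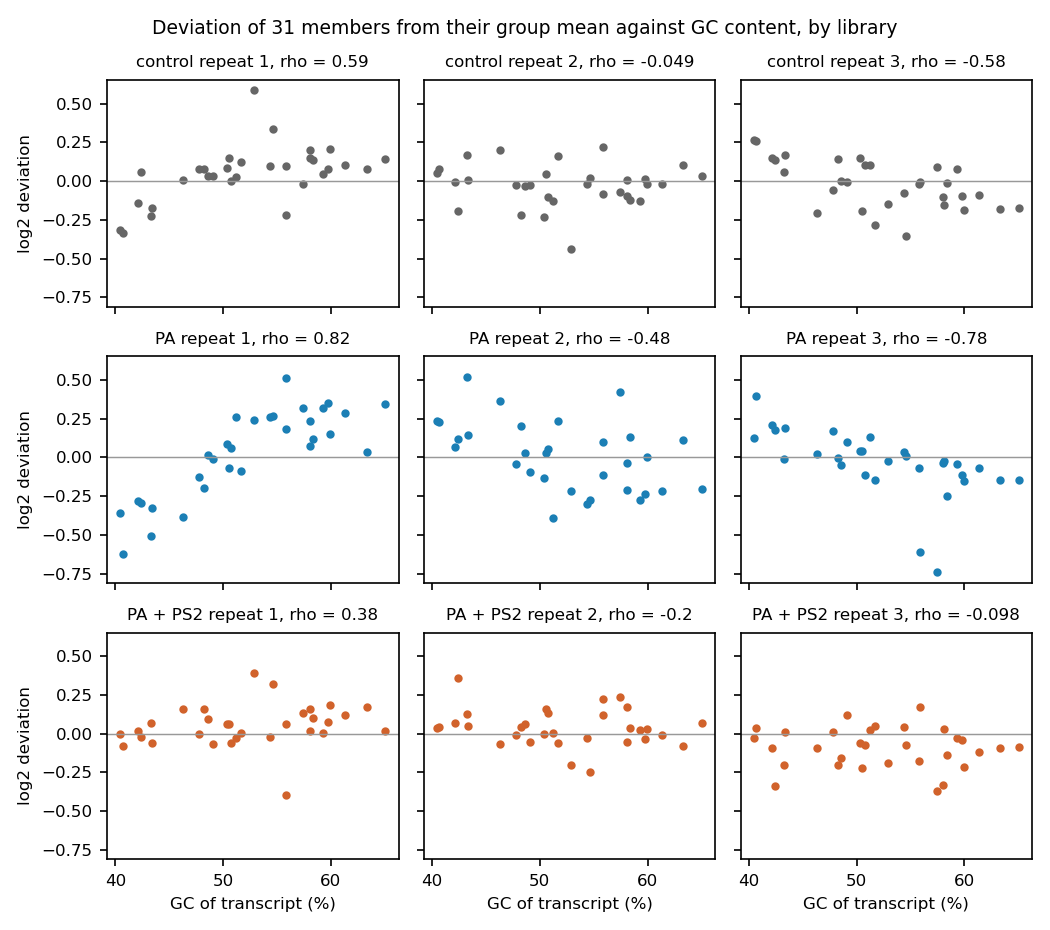
Deviation of each tested channel gene from its group mean (log2) against the GC content of its longest coding transcript (percent), by library. The points rise in PA repeat 1 (rho 0.819) and fall in PA repeat 3 (rho -0.777).

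Proteins that anchor, modulate or sit beside the channels were read from a list of 46 genes, of which 43 were tested. None passed in any comparison: 0 of 43 with edgeR, with the repeat as a block and with DESeq2. At an unadjusted p under 0.05 there were 0, 2 and 6 (against 1.22%, 5.63% and 5.61% of all genes) in PA against control, PA + PS2 against control and PA + PS2 against PA. Groups without overlap made up 4.65%, 11.6% and 18.6% of the 43 in the same order, against 4.04%, 11.9% and 9.64% of all genes. For PA + PS2 against control these were 1 higher and 4 lower, and against PA 1 higher and 7 lower. Rem2, a GTPase that restrains calcium channels, was at 12.2, 11 and 8.84 CPM in control, 11.3, 11.4 and 13.2 in PA and 18.2, 13.8 and 16.3 in PA + PS2. The PA + PS2 libraries lay above all others, with a log2 difference of 0.59 ± 0.16 from control (adjusted p = 0.234). Ryr2, a calcium release channel of internal stores, was at 33.1, 30.4 and 32.8, 32.4, 41.4 and 31.1, and 25.4, 26.6 and 24.9 CPM in the same order. Its PA + PS2 libraries lay below all others, and the difference was -0.32 ± 0.12 from control (adjusted p = 0.598) and -0.45 ± 0.12 from PA (adjusted p = 0.359). Ank3, the anchor of sodium channels at the axon initial segment, differed by -0.34 ± 0.11 between PA + PS2 and PA (adjusted p = 0.485), its relative Ank2 by -0.28 ± 0.11 (adjusted p = 0.686) and Unc80, of the sodium leak channel complex, by -0.44 ± 0.16 (adjusted p = 0.654).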

How the data were processed

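The deposited files hold raw read counts per Ensembl gene, 1 file for each of 9 libraries, as the authors made them. The submitters' processing notes list mm10 with STAR 2.7.5, HTSeq 2.0.2, cutadapt 4.2 and DESeq2 1.14.1. Which annotation, strand rule and filters applied is not given in the sources used here. The labels give polyA RNA as the molecule, but the library kit is for total RNA. Names, coordinates and exon lengths came from GENCODE M21 (GRCm38), which matched 54165 of 54232 identifiers. Exons of 11 of the 40 channel genes overlap another gene. Of these, 10 overlap a gene on the opposite strand, among them Cacna1a, Cacna1d, Cacna1h, Cacnb1 and Cacng2. The limit given for Cacna1d holds for each of them.

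Counts were fitted with edgeR 4.0.16 in R 4.3.3 (quasi-likelihood F test, 2-sided, TMM scaling) over all 9 libraries with 6 residual degrees of freedom. filterByExpr (minimum count 10, minimum total 15) left 15712 genes and 99.9% of counts; p-values were adjusted by Benjamini and Hochberg over them, with a threshold of 0.05. CPM uses the scaled library sizes, and SE is the absolute log2 difference over the square root of F. DESeq2 1.42.0 and other settings were alternatives.

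Named in full were channel genes that passed, the 6 with the smallest p in each comparison and the highest per kilobase in each subfamily, and the associated genes that passed or were among the 3 with the smallest p. Some genes and sequences that these rules select are not reported here. The channel genes, lists and alternatives were chosen with earlier results of these data known. Repeat numbers are shared by the groups. The deviations of same-numbered libraries correlated at 0.422, 0.365 and 0.28 for PA and control and at 0.183, 0.217 and 0.135 for PA + PS2 and control, so the repeats were read as paired there, from the data and not the labels. For PA + PS2 and PA they were 0.0147, 0.292 and 0.302. The main fit held no repeat term, so the SEs and adjusted p-values given for single genes ignore this pairing. With the repeat as a block in the edgeR test, the adjusted p of Cacng5 for PA + PS2 against control was 0.414. That of Cacna1d for PA + PS2 against PA was 0.209.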

Additional observations from a re-analysis of the deposited data

How the results depend on the processing

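The channel genes called stayed at 0 of 31 in each comparison under the main fit and all 17 alternatives (edgeR or DESeq2; GC offsets and the omission of repeat 1 were added after seeing the data). The lowest adjusted p of a channel gene in any of these was 0.908 for PA against control and 0.0686 (Cacna1d, with the GC offset and replicate block) for PA + PS2 against PA. Counts over all genes moved more. For PA against control, 23 genes passed with no filter on low counts. For PA + PS2 against control, where 7 passed, the counts were 184 with the replicate block, 224 with DESeq2, 17 with its size factors, 365 with no filter, 28 with only the 2 groups, 47 with the GC offset, 331 with offset and block, and 125 without repeat 1 of all groups. For PA + PS2 against PA, where 0 passed, they were 57, 128, 330, 2, 198 and 3 with the block, DESeq2, no filter, the offset, offset and block, and without repeat 1. Leaving out 1 library gave 0 to 175 genes for PA + PS2 against control, the 175 without control repeat 1 and 0 without control repeat 2 or 3 or PA + PS2 repeat 1, and 0 to 37 for PA + PS2 against PA, the 37 without control repeat 1. Of the associated proteins, 1 (Ryr2, PA + PS2 against PA) passed with offset and block. The causes were not tested.

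Of 1020 alternative log2 differences of the named genes, 55 changed sign, all of differences below the threshold. For PA against control these were Scn1a -0.0216 with the replicate block, Cacng4 0.00465 with no filter, Cacng4 0.00282 with only the 2 groups, Cacna2d1 0.00421 with the GC offset, Cacna2d1 0.000313 with offset and block, Cacng2 -0.0313, Scn3b 0.037, Cacna1b 0.12, Cacna2d1 0.00869 and Cacnb3 -0.00779 without repeat 1. For PA + PS2 against control these were Cacna1g 0.000367 with no filter, Cacna1g 0.0289, Cacna1b 0.0485 and Cacna2d1 -0.11 without repeat 1. For PA + PS2 against PA these were Cacna1b -0.0716 and Cacna2d1 -0.12 without repeat 1. Leaving out 1 library gave ranges for PA against control of Scn1a -0.29 to 0.23, Cacng2 -0.0453 to 0.25, Scn2a -0.0133 to 0.22, Cacna1b -0.31 to 0.25, Cacna2d1 -0.29 to 0.16, Cacnb3 -0.064 to 0.19, Cacng4 -0.15 to 0.12, Unc80 -0.0602 to 0.22 and Ryr2 -0.0236 to 0.20. Leaving out 1 library gave ranges for PA + PS2 against control of Cacna1d -0.0603 to 0.0535, Cacna1g -0.0898 to 0.14, Cacna2d3 -0.0308 to 0.077, Scn2a -0.0178 to 0.15, Cacna1b -0.30 to 0.27, Cacna2d1 -0.15 to 0.14 and Ank2 -0.14 to 0.0163. Leaving out 1 library gave ranges for PA + PS2 against PA of Cacng5 -0.00117 to 0.22, Scn1a -0.48 to 0.0521, Cacng2 -0.0484 to 0.24, Scn2a -0.16 to 0.0786, Cacna1b -0.19 to 0.15, Cacna2d1 -0.15 to 0.30, Cacnb3 -0.0785 to 0.17 and Cacng4 -0.0552 to 0.20.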
